A study of Mus musculus with 5 samples.

Results

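The 37 genes described here are a chosen set from the interferon pathway, read in cells after PIPC, a synthetic double-stranded RNA. The set holds 3 Ifit, 4 Ifitm, 5 Oas and 6 Irf genes, Stat2, both chains of the type I interferon receptor, 4 sensors of foreign nucleic acid, 11 further effectors and the chemokine Cxcl10. Every ATAC-seq peak that overlapped a gene body, or the 10 kb on either side of it, was taken as belonging to that gene. All 37 were found in the gene table, 35 of them among its 21883 protein-coding genes, and Mx1 and Mx2 as transcribed pseudogenes. Their loci formed 32 separate windows of 1439 kb in all, of which 5 held several members.

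Open chromatin had been profiled in bulk, with 1 peak list per library, in lineage-depleted bone marrow labelled as haematopoietic stem and progenitor cells (HSPC). The heterozygous genotype, Smc3-het, was Mx1-Cre+, inv(16);Smc3 D/+ (n = 2), and it was set against Smc3-wt, Mx1-Cre+, inv(16);Smc3 +/+ (n = 3). Smc3 encodes a cohesin subunit, and the series title concerns cohesin haploinsufficiency together with inv(16). PIPC, Mx1-Cre and inv(16) were common to all 5 libraries. No library without PIPC was analysed here, so accessibility before and after interferon induction cannot be compared. Age, sex, strain and the time since PIPC are not given in the labels. Mx1-Cre is driven by an Mx1 promoter, so Cre itself is made in interferon-responsive cells, and the response in these cells is part of the model. The labels do not state that libraries came from separate mice, and any p-value here reflects only how these 5 libraries scatter, in part perhaps for technical reasons.

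Type I interferon binds the receptor chains Ifnar1 and Ifnar2, and the kinases on them phosphorylate Stat proteins, Stat2 among them. A complex that holds Stat2 and Irf9 binds the interferon-stimulated response element (ISRE), and the gamma-activated site (GAS) is a further Stat binding element. Genes so induced include antiviral effectors (Ifit, Ifitm, Oas, Mx), sensors that feed back into interferon production (Ifih1, Ddx58) and regulators that amplify or damp the response (Irf7, Usp18). In haematopoietic stem cells interferon is also known to promote exit from quiescence.

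The lists differed in length and in strength, and this bears on every value below. They held 26885 and 36467 peaks in Smc3-het, against 65880, 102822 and 121224 in Smc3-wt. Counts were therefore made mainly in equal-size lists, the 26885 peaks of lowest p in each library. Pileup, the number of fragments over a summit, was divided by the library's background coverage. That background was 3.59 and 2.92 fragments per base for the Smc3-het libraries, against 2.74, 1.93 and 3.02 for the Smc3-wt ones. At the 9022 protein-coding genes with a gene-end peak (within 1 kb of either gene end) in 5 of 5 equal-size lists, the median pileup over background was 13.6 and 17.1 in Smc3-het, against 30.6, 32.2 and 41 in Smc3-wt. Of the fixed progenitor markers Runx1, Tal1 and Lmo2 had such a peak in 5 of 5 lists, Kit and Cd34 in 3, Gata2 in 1 and Ly6a and Mpo in 0. The T cell markers Cd3e, Cd3g and Cd8a, the B cell markers Cd79a and Ms4a1 and the granulocyte marker Ly6g had 0 in equal-size lists.

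In lists of equal length the interferon loci held about as many peaks in both genotypes. With each peak counted once, equal-size lists held 68 and 63 in Smc3-het, against 62, 65 and 63 in Smc3-wt. The mean was 65.5 ± 3.54 in the 2 Smc3-het and 63.3 ± 1.53 in the 3 Smc3-wt libraries (SD). These ranges overlapped, and the peaks made up between 0.231% and 0.253% of each list. In full lists the loci held 68 and 72 peaks in Smc3-het against 107, 130 and 152 in Smc3-wt, a difference that runs with list length. With a common limit in place of a common length, −log10 q of at least 5 and 10, the mean difference was −38.7 and −25.8 peaks, as those lists too were longer in Smc3-wt. In bulk cells, open chromatin in fewer cells, less opening per cell and lower signal over background of a whole library cannot be told apart.

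A gene-end peak was more common among the members than among protein-coding genes at large in every library. Equal-size lists had one at 28 and 25 of the 37 members in Smc3-het (75.7% and 67.6%) and at 24, 25 and 26 in Smc3-wt (64.9%, 67.6% and 70.3%). Over all protein-coding genes the share was 48.7% and 48.8% in Smc3-het, against 49.2%, 48.6% and 49.5% in Smc3-wt. In 5 of 5 lists it was present at 19 members, or 51.4%, against 41.2% of all genes. Those 19 were Ifit1, Ifit2, Oasl1, Irf1, Irf3, Irf7, Irf9, Stat2, Ifnar1, Ifnar2, Rsad2, Usp18, Bst2, Ifih1, Zbp1, Mx1, Mx2, Eif2ak2 and Trim25. Irf5, Isg15, Rtp4 and Ifi44 had none in any equal-size list, and Isg15 and Rtp4 had none in any full list either.

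**Figure D1:**
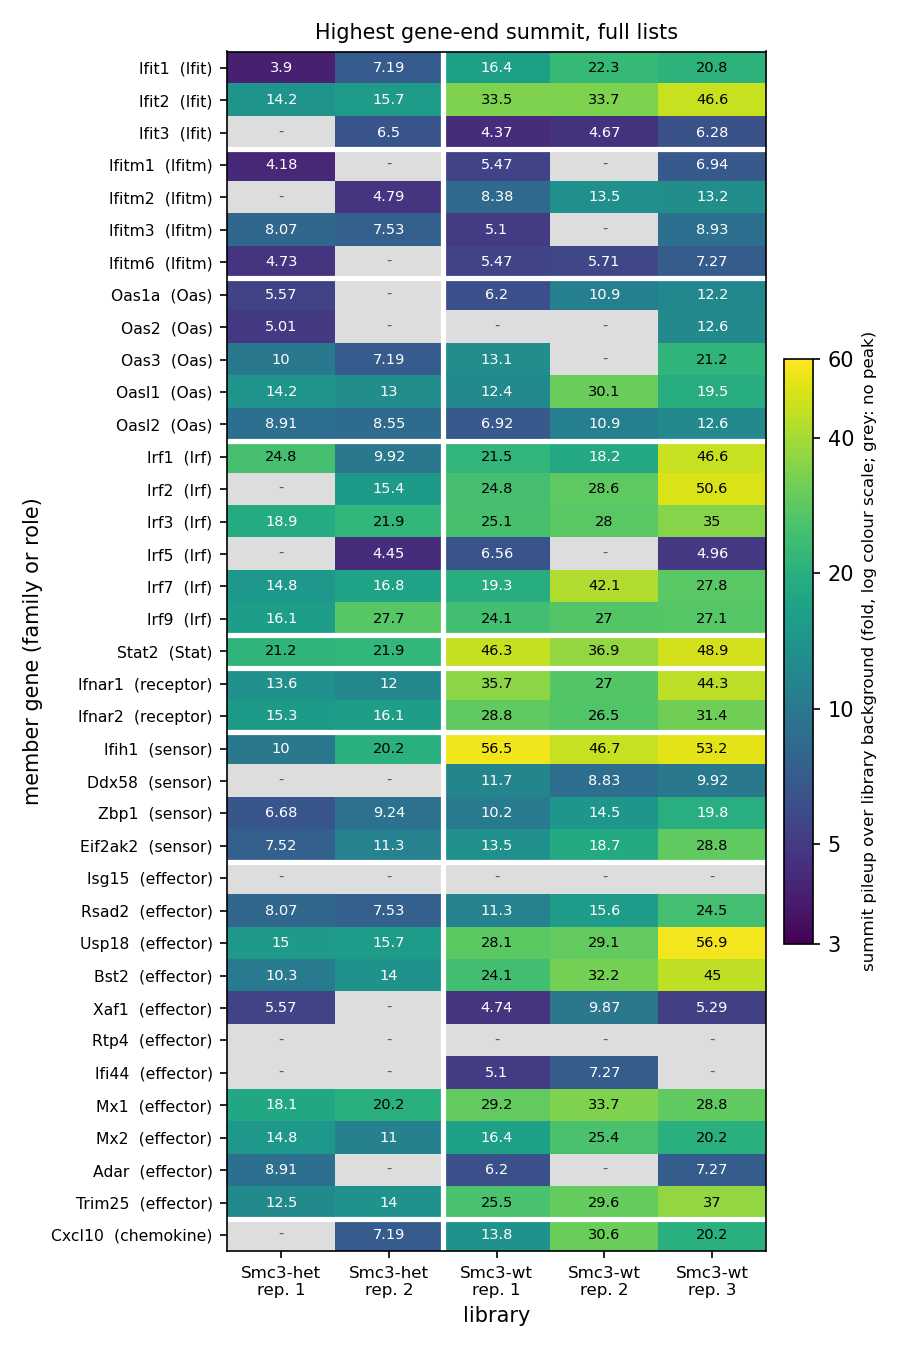
Highest summit pileup over library background (fold, log colour scale) among full-list peaks within 1 kb of either end of each of the 37 genes, in 2 Smc3-het libraries on the left and 3 Smc3-wt libraries on the right, with grey cells where no peak was called. Stat2 ran from 21.2 to 48.9 and Isg15 and Rtp4 are grey in 5 of 5 columns, while Ddx58 is grey in both Smc3-het columns only.

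Genotype set few of these gene ends apart. In equal-size lists 1 member, Ifitm3, had a gene-end peak in both Smc3-het and no Smc3-wt list, against a background of 0.693% of the 12691 genes with any such peak. In the other direction 1 member, Ifitm2, had one in all 3 Smc3-wt and no Smc3-het list, against 0.938%. With 33 members holding a gene-end peak somewhere, 1 gene is 3.03%. In full lists no member was called in Smc3-het alone, beside a background of 0.0503%, and 1 of 35, Ddx58, was called in Smc3-wt alone, beside 3.69%.

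Counts of peaks per locus stood apart between genotypes at 6 of the 36 members with any peak. The count was higher in Smc3-het at Ifit2, Ifit3, Ifitm3, Ifitm6 and Irf5, 13.9% of members, against 4.32% of all genes. It was lower in Smc3-het at Irf2, 2.78% of members, against 3.97%. Ifit2 and Ifit3 are neighbours that share part of their windows, though no equal-size peak fell to both. Ifitm3 and Ifitm6 are neighbours that share peaks as well, so the 5 genes are not all separate observations. In each case the two-sided exact permutation p was 0.2, the smallest that groups of 2 and 3 allow, so no gene could pass a threshold of 0.05 by this test. With equal-size lists cut to the 13442 strongest peaks the groups overlapped at 5 of these 6 genes, and Irf5 stayed apart.

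Merged over libraries, the member peaks of equal-size lists gave 108 regions, of which 34 (31.5%) were found in 5 of 5 lists, against 21.7% of all 56747 regions. Among the member regions sharing followed position: 21 of 41 gene-end regions were in 5 of 5 lists, against 4 of 28 inside genes and 9 of 39 in the flanks. The 56747 regions include those at any distance from genes, and their shares by position were not computed. Only 1 region was found in both Smc3-het and no Smc3-wt list, 0.926% of the 108 against a background of 1.08%, and 2 showed the opposite, 1.85% against 1.91%. The first lay upstream of Irf5, and the other 2 at Ifitm2 and upstream of Oasl2. Full lists gave 243 member regions, of which 0 were in Smc3-het alone, beside a background of 0.0745%, and 11 (4.53%) were in all 3 Smc3-wt lists alone, beside 2.44%; the Smc3-wt lists are the longer ones.

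The letters of the promoters bear on which factors could read them. RefSeq promoter windows (build GRCm38.p6, from 250 bases before to 50 after an annotated start) were matched for 31 members, giving 36 windows. Oas2, Usp18, Zbp1, Rtp4, Mx1 and Mx2 were not matched. The ISRE core was searched as GAAANNGAAA and the GAS as TTCNNNGAA, both on both strands, and matches to the same motif may overlap. An ISRE core was found in 15 of the 36 windows (41.7%), against 1131 of all 32851 windows (3.44%), and a GAS in 11 (30.6%), against 8.30%. The 5 windows below are shown because the results turn on them, each 5′ to 3′ as transcribed, with the ISRE core matches in capitals in Ifit1, Isg15, Ifih1 and Bst2 and the GAS match in capitals in Irf1. Ifit1 lies at chr19:34640639-34640938 (+), Isg15 at chr4:156200769-156201068 (−), Ifih1 at chr2:62646206-62646505 (−), Bst2 at chr8:71537423-71537722 (−) and Irf1 at chr11:53769764-53770063 (+).
Ifit1: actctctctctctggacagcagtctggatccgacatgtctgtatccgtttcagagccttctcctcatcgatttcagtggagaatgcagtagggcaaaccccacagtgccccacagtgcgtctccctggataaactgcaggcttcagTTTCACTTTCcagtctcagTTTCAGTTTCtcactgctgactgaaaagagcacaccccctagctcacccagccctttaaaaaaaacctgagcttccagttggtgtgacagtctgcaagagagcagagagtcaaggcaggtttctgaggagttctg
Isg15: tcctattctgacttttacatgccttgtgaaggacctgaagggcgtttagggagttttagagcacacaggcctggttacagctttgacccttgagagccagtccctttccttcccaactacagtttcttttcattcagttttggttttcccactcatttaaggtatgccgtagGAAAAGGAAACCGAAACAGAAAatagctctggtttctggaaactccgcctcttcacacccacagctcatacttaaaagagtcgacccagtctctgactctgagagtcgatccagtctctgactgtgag
Ifih1: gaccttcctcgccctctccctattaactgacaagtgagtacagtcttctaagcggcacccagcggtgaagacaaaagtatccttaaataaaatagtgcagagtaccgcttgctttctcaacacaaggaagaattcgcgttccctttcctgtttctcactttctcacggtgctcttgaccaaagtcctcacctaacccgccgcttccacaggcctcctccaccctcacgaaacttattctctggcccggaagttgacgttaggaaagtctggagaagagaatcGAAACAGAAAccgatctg
Bst2: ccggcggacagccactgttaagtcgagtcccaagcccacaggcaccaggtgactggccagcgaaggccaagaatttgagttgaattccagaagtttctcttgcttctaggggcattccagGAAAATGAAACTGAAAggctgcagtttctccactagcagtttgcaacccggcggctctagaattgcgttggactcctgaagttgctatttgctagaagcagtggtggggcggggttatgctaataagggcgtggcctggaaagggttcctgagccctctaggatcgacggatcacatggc
Irf1: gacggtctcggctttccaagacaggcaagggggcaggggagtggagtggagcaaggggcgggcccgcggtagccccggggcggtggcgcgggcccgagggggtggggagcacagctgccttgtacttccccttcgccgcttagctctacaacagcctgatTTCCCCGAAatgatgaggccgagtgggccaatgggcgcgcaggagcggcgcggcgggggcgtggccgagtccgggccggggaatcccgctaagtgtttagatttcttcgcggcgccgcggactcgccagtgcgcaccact
Ifit1 has 2 ISRE cores, Bst2 has 2 that overlap, and Isg15 has 3 that overlap in a run from base −78 to base −57 relative to its start. The single core of Ifih1 lies after the start, from base 32 to base 41. These matches are descriptions of letters and not mapped binding sites.

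Windows with an ISRE core were covered no more often than those without. Of the 36 member windows 18 (50%) lay under a peak in 5 of 5 equal-size lists, against 28.2% of all windows. The share was 6 of 15 windows with an ISRE core and 12 of 21 without one. Among those 12, Ifit2, Irf1 and Irf9 each gave 2 windows under the same peak, so the windows are not all separate observations. Over all promoter windows the order was alike, with 250 of 1131 windows with an ISRE core (22.1%) under such peaks, against 28.4% of those without. Base composition moved with it: the median observed over expected CpG ratio was 0.583 in the 18 windows under 5 peaks and 0.298 in the other 18. Its part in the result was not tested. Isg15, with the most ISRE cores, lay under no peak in any full list, as did Irf5, which had none.

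**Figure D2:**
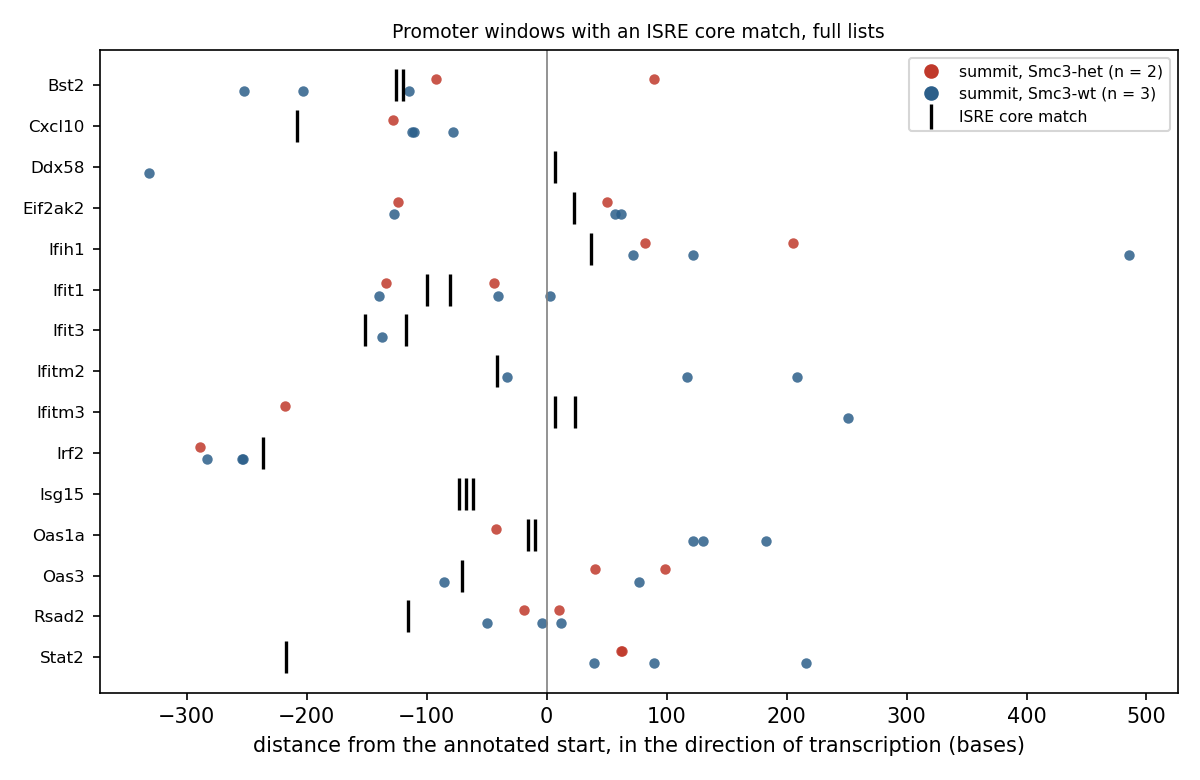
Distance in bases from the annotated start, in the direction of transcription, of the ISRE core centres (black ticks) and of the highest full-list summit over each promoter window (points, Smc3-het above Smc3-wt), for the 15 windows with a match. The 4 Irf2 summits lie 16.5 to 52.5 bases from their core, the Stat2 core lies at −217.5 away from all 5 summits, and Isg15 has 3 ticks and no point.

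The Ifit genes encode proteins that bind foreign RNA and block its translation. Their loci held 5 and 5 peaks in Smc3-het, against 3, 4 and 4 in Smc3-wt equal-size lists, without overlap. In full lists they held 5 and 6 in Smc3-het against 7, 7 and 5 in Smc3-wt, which overlap. How often other gene groups of this size stand apart was not computed. Ifit1 (chromosome 19, 34640889 to 34650009) had a promoter peak in every library, in a region also at an end of Ifit1bl2. The peak had 3.90 and 7.19 times background in Smc3-het, against 16.4, 22.3 and 20.8 in Smc3-wt. Both Smc3-het values lay below all Smc3-wt values, as raw pileup over background did at 90.9% of the 9022 shared gene ends. A second Ifit1 site beyond the far end of the gene, at chr19:34656295-34657204, was also in 5 of 5 lists, at 6.68 and 9.58 in Smc3-het against 30.6, 21.3 and 42.6 in Smc3-wt. Ifit1 had 2 and 2 locus peaks in Smc3-het, against 2, 3 and 3 in Smc3-wt.

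Ifit2 (chromosome 19, 34550550 to 34576534) had the strongest Ifit promoter, at 14.2 and 15.7 times background in Smc3-het, against 33.5, 33.7 and 46.6 in Smc3-wt. Its locus had 2 and 2 peaks in Smc3-het, against 1, 1 and 1 in Smc3-wt, and Ifit3 (34583119 to 34588982) had 1 and 1 against 0, 0 and 0. The extra Smc3-het peaks did not fall on the same region in both libraries. In full lists the order was gone, with 2 and 2 peaks at Ifit2 in Smc3-het against 3, 3 and 1 in Smc3-wt, and 1 and 1 at Ifit3 against 2, 3 and 1. The Ifit3 promoter was covered in 1 full list, Smc3-wt replicate 1, at 4.37. Of its 31-base words 57.4% also occur in another promoter window, that of Ifit3b, and the handling of reads with several matches is not stated in the labels.

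The Ifitm genes encode membrane proteins that block virus entry at the cell and endosome membrane, and Ifitm3 is known for a high basal level in stem cells. Their peaks were few, weak and mostly unshared. The 4 genes held 5 and 2 equal-size peaks in Smc3-het, against 2, 3 and 3 in Smc3-wt, and 5 and 3 against 7, 4 and 15 in full lists. None of the 4 had a gene-end peak in 5 of 5 lists of either kind.

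Ifitm2 (chromosome 7, 140954837 to 140959686) had its apart region at chr7:140953777-140954977, by the annotated end, at 8.38, 10.4 and 13.2 times background in the 3 Smc3-wt libraries. Neither Smc3-het equal-size list held it, and the full list of Smc3-het replicate 2 did, at 4.79. Over the Ifitm2 promoter window the full lists gave no peak in Smc3-het, against 6.56, 13.5 and 7.93 in Smc3-wt. The lowest value an equal-size list could hold was 3.34 and 4.79 in Smc3-het, against 6.56, 8.31 and 7.93 in Smc3-wt.

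Ifitm3 (chromosome 7, 141009590 to 141010744) had 3 and 2 locus peaks in Smc3-het, against 1, 0 and 1 in Smc3-wt. Its gene-end peaks in Smc3-het, at 8.07 and 7.53, lay at opposite ends of the gene, and full Smc3-wt lists had 5.10, none and 8.93. Only the peak of Smc3-het replicate 2 lay over the promoter, so the gene-end call joins 2 different sites. Ifitm6, its neighbour, had 2 and 2 locus peaks in Smc3-het against 0, 1 and 1 in Smc3-wt, and 2 and 2 against 2, 2 and 6 in full lists. Ifitm1 had a gene-end peak in Smc3-het replicate 1 alone among equal-size lists.

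**Figure D3:**
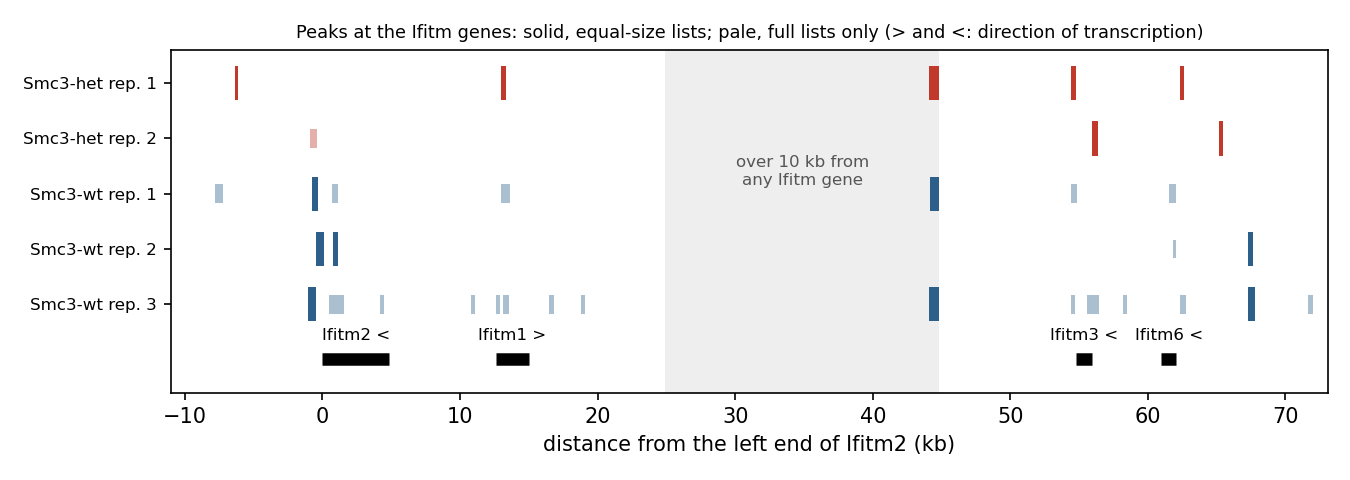
Peaks at the 4 Ifitm genes (black bars, with direction of transcription) by distance in kb from the left end of Ifitm2, for 2 Smc3-het libraries above 3 Smc3-wt libraries, with solid boxes for equal-size lists and pale boxes for peaks of full lists only. The Smc3-wt boxes at the left end of Ifitm2 line up, while the Smc3-het boxes near Ifitm3 and Ifitm6 sit at different places in the 2 libraries.

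Oas proteins make 2′-5′ oligoadenylates that switch on an RNA-degrading enzyme, while Oasl1 and Oasl2 belong to an Oas-like branch. The 5 loci held 11 and 5 equal-size peaks in Smc3-het, against 5, 6 and 8 in Smc3-wt, so the 2 Smc3-het libraries spanned the Smc3-wt range. A gene-end peak was present at 5 and 3 of the 5 genes in Smc3-het, against 2, 3 and 5 in Smc3-wt. Oasl1 (chromosome 5, 114923143 to 114937911) had the one shared by all libraries, at 14.2 and 13 times background in Smc3-het, against 12.4, 30.1 and 19.5 in Smc3-wt. That peak lay before the promoter window, which itself was covered in 4 of 5 full lists.

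Oasl1 had 4 and 2 locus peaks in Smc3-het, against 2, 2 and 2 in Smc3-wt, and Oasl2 had 2 and 2 against 2, 3 and 3. Upstream of Oasl2 (114896926 to 114912245), the region chr5:114891205-114892434 was found in the 3 Smc3-wt libraries, at 9.11, 8.83 and 11.9, and in neither Smc3-het library in lists of either length. Inside Oas3, the region chr5:120774956-120776578 was in 5 of 5 lists, at 9.47 and 14.4 in Smc3-het against 25.1, 29.1 and 29.1 in Smc3-wt. At Oas1a the gene-end peaks of full lists had 5.57 and none in Smc3-het against 6.20, 10.9 and 12.2 in Smc3-wt. Its promoter shares 17% of its 31-base words with Oas1g. Oas2 had gene-end peaks only in Smc3-het replicate 1, at 5.01, and Smc3-wt replicate 3, at 12.6.

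The Irf family holds the transcription factors of the pathway. Irf3 and Irf7 start interferon transcription, Irf9 joins Stat2 at the ISRE, Irf1 and Irf2 act at overlapping sites as activator and mostly repressor, and Irf5 acts downstream of Toll-like receptors. Their loci held 18 and 16 equal-size peaks in Smc3-het, against 17, 19 and 16 in Smc3-wt. Irf1, Irf3, Irf7 and Irf9 had a gene-end peak in 5 of 5 lists. Irf3 (chromosome 7, 44997648 to 45002848) had 1 equal-size peak in each library, at 18.9 and 21.9 times background in Smc3-het, against 25.1, 28 and 35 in Smc3-wt, and it is also at an end of Bcl2l12. At Irf9 (chromosome 14, 55603985 to 55610030) the peak, also at an end of Rnf31, had 16.1 and 27.7 in Smc3-het, against 24.1, 27 and 27.1 in Smc3-wt. With Oasl1 and Irf1 it was 1 of 3 shared members where raw pileup over background overlapped between genotypes.

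Irf1 (chromosome 11, 53770014 to 53778374) varied more within genotype than between them, with 24.8 and 9.92 in Smc3-het, against 21.5, 18.2 and 46.6 in Smc3-wt. A second site before it, chr11:53762839-53764403, was nearly level over all 5 libraries, at 18.9 and 18.8 in Smc3-het, against 18.6, 22.3 and 19.5 in Smc3-wt. The GAS match of Irf1 lies from base −90 to base −82 of the promoter window shown above.

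Irf2 (chromosome 8, 46739745 to 46847458) had the most peaks of any member, 5 and 6 in Smc3-het, against 10, 10 and 7 in Smc3-wt, and 5 and 7 against 15, 18 and 16 in full lists. All Smc3-het counts lay below all Smc3-wt counts in both kinds of list. With equal-size lists cut to the 13442 strongest peaks they overlapped, at 3 and 5 in Smc3-het against 5, 5 and 4 in Smc3-wt (difference −0.667, against −3.5). The region over its start, chr8:46739231-46742053, was in 5 of 5 lists at 10.6 and 17.1 in Smc3-het, against 24.8, 30.6 and 50.6 in Smc3-wt. In Smc3-het replicate 1 the peak of this region began just over 1 kb past the start, so Irf2 had a gene-end call in 4 lists. Inside the gene, chr8:46789163-46790014 was the only other region in 5 of 5 lists, at 8.63 and 8.21 against 22.2, 18.2 and 23.5.

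**Figure D4:**
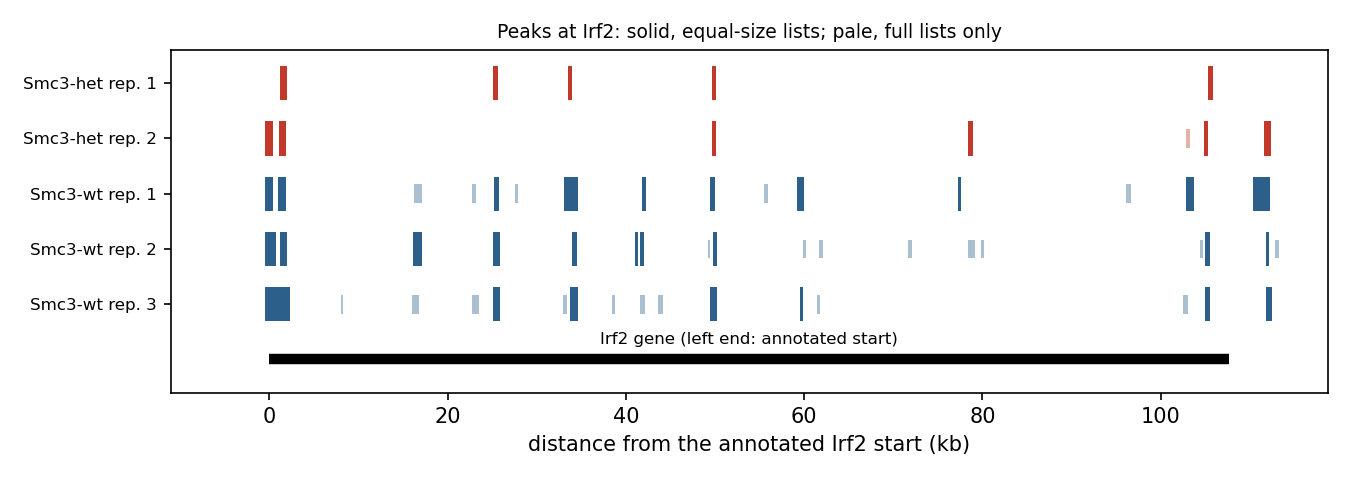
Peaks at Irf2 by distance in kb from its annotated start, for 2 Smc3-het libraries above 3 Smc3-wt libraries, with solid boxes for equal-size lists and pale boxes for peaks of full lists only. The equal-size lists hold 5 and 6 boxes in Smc3-het, against 10, 10 and 7 in Smc3-wt, and most of the extra Smc3-wt boxes lie inside the gene.

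Irf5 (chromosome 6, 29526130 to 29541869) differed in the other direction, with 4 and 3 equal-size peaks in Smc3-het, against 0, 2 and 2 in Smc3-wt. No list held a peak over its promoter window, and gene-end peaks in 3 full lists lay elsewhere. The region found only in Smc3-het equal-size lists, chr6:29517267-29517811, had 8.07 and 5.82 times background there, and a full Smc3-wt list, that of replicate 2, also held it at 7.27. Full lists had 4 and 5 peaks at Irf5 in Smc3-het against 3, 5 and 5 in Smc3-wt, which overlap. Irf7 (chromosome 7, 141263183 to 141266499) had 14.8 and 16.8 times background in Smc3-het against 19.3, 42.1 and 27.8 in Smc3-wt.

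Stat2, the only Stat member, acts with Irf9 at the ISRE. Its promoter region chr10:128270024-128271113, also at an end of Apof, had 21.2 and 21.9 times background in Smc3-het, against 46.3, 36.9 and 48.9 in Smc3-wt. Its locus held 1 and 3 equal-size peaks in Smc3-het, against 1, 2 and 1 in Smc3-wt, which overlap. The receptor genes Ifnar1 and Ifnar2 each had a gene-end peak in 5 of 5 lists. Ifnar1 had 13.6 and 12 in Smc3-het against 35.7, 27 and 44.3 in Smc3-wt, and Ifnar2 had 15.3 and 16.1 against 28.8, 26.5 and 31.4. Ifnar2 also carried a shared peak at its far end, where Il10rb begins or ends. It had 4 and 2 locus peaks in Smc3-het, against 3, 4 and 3 in Smc3-wt.

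Among the sensors, Ifih1 (chromosome 2, 62595618 to 62646255), which encodes the long double-stranded RNA sensor MDA5, had 10 and 20.2 times background at its promoter in Smc3-het against 56.5, 46.7 and 53.2 in Smc3-wt. Smc3-het lay below Smc3-wt without overlap, as raw pileup over background did at 90.9% of the 9022 shared gene ends. The Smc3-wt values were 2 or more times the higher Smc3-het one. At the median shared gene end the levels were 13.6 and 17.1 in Smc3-het against 30.6, 32.2 and 41 in Smc3-wt. The Ifih1 locus held 2 and 4 equal-size peaks in Smc3-het, against 6, 4 and 4 in Smc3-wt. A second region inside Ifih1, chr2:62643343-62644132, was in 5 of 5 lists at 6.40 and 8.90 in Smc3-het against 27.7, 20.8 and 28.4 in Smc3-wt. Ddx58, which encodes RIG-I, a sensor of RNA ends, had gene-end peaks in full lists only in Smc3-wt, at 11.7, 8.83 and 9.92. Of these, 1 lay over the promoter window. Zbp1, a sensor of Z-form nucleic acid, had 6.68 and 9.24 in Smc3-het against 10.2, 14.5 and 19.8 in Smc3-wt, and Eif2ak2, the kinase PKR, had 7.52 and 11.3 against 13.5, 18.7 and 28.8.

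Isg15 encodes a ubiquitin-like protein and is among the genes most strongly induced by interferon. No list held a peak at either end of it (chromosome 4, 156199424 to 156200818). Its locus count, 2 and 3 in Smc3-het, against 3, 3 and 3 in Smc3-wt, came from the flanks, among them a region in 5 of 5 lists at an end of Perm1, chr4:156202447-156204113, with 15.3 and 20.5 in Smc3-het against 41.5, 26 and 55.5 in Smc3-wt. Rtp4 also had no gene-end peak in any list, but its span in the gene table is long (chromosome 16, 23520219 to 23614222). No promoter window was matched for it, so a promoter inside that span would not be seen by this count. Its locus held 1 equal-size peak in each library, inside the span and not at a common region. Both Smc3-het libraries and Smc3-wt replicate 3 had it at chr16:23609427-23610314. Smc3-wt replicates 1 and 2 had it at chr16:23557192-23557602. A gene can be transcribed without a called peak at its annotated ends, and RNA was not measured here.

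The remaining effectors included Rsad2 (viperin), Usp18 (which removes Isg15 and damps receptor signalling), Bst2 (tetherin) and Trim25 (a RIG-I activating ligase), all with a gene-end peak in 5 of 5 lists. Bst2 had 10.3 and 14 times background in Smc3-het against 24.1, 32.2 and 45 in Smc3-wt. Usp18 had 15 and 15.7 against 28.1, 29.1 and 56.9. Rsad2 was weaker, at 8.07 and 7.53 against 11.3, 15.6 and 24.5. Summed over the 5 equal-size lists, Trim25 had the most locus peaks of this class, 2 and 5 in Smc3-het, against 4, 3 and 4 in Smc3-wt. Adar, which edits double-stranded RNA and has 3 promoter windows, had the last of them under a peak in 5 of 5 lists, at 12.2 and 13.3 in Smc3-het against 17.5, 15.6 and 31.1 in Smc3-wt, and the other two under one in 3 full lists. Xaf1, a pro-apoptotic effector, had gene-end peaks in full lists at 5.57 and none in Smc3-het against 4.74, 9.87 and 5.29 in Smc3-wt. Ifi44, of uncertain function, had none in Smc3-het against 5.10, 7.27 and none in Smc3-wt.

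Mx1, an antiviral GTPase gene, had 18.1 and 20.2 times background at its right end (chr16:97462540-97464263) in Smc3-het against 29.2, 33.7 and 28.8 in Smc3-wt. The transgene carries an Mx1 promoter, so fragments from it and from the gene cannot be told apart there. Mx2 had 14.8 and 11 in Smc3-het, against 16.4, 25.4 and 20.2 in Smc3-wt. Cxcl10, a chemokine for activated T cells, had no gene-end peak in Smc3-het replicate 1, 7.19 in replicate 2, and 13.8, 30.6 and 20.2 in Smc3-wt. Its locus held 1 and 2 peaks in Smc3-het, against 2, 2 and 2 in Smc3-wt.

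Because raw pileup over background was lower in Smc3-het nearly everywhere, each gene-end value was also divided by its library's median over the 9022 shared gene ends and put on the log2 scale. A relative level of 0 is then the typical shared gene end of that library. By mean over 5 libraries, Stat2 (0.41) and Ifih1 (0.32) were highest, at the 70.3 and 66.9 percentiles of all shared gene ends. Zbp1 (−1.14) and Ifit1 (−1.09) were lowest, at the 5.12 and 6.17 percentiles. The member median was 0.06 and −0.29 in Smc3-het, against −0.35, −0.20 and −0.38 in Smc3-wt, which overlap.

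Relative levels were separate between genotypes at 7 of the 19 shared members. They were higher in Smc3-het at 4 (21.1%), beside 19.1% of all shared gene ends, and lower at 3 (15.8%), beside 22.0%, so the shares were near those of genes at large. Over the 19 members the difference, Smc3-het minus Smc3-wt, was positive at 12 and negative at 7, with a median of 0.15. Over all shared gene ends its median was −0.00, and its 5th and 95th percentiles were −0.70 and 0.72.

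Of the 7 members set apart, the factor genes Irf9 and Irf3 had the largest positive differences. Irf9 had relative levels of 0.24 and 0.70 in Smc3-het against −0.35, −0.25 and −0.60 in Smc3-wt, a difference of 0.87, past the 95th percentile of all genes. Irf3 had 0.47 and 0.36 against −0.28, −0.20 and −0.23, a difference of 0.65. Mx1 had 0.41 and 0.24 against −0.07, 0.07 and −0.51 (difference 0.49), and Zbp1 −1.03 and −0.89 against −1.58, −1.15 and −1.05 (difference 0.30). The difference at Mx1 was 0.30 when Smc3-wt replicate 3 was left out, and that at Zbp1 was 0.13 when Smc3-wt replicate 1 was. Without division by the library median, all 4 differences turned negative, as the median of all shared gene ends then moved by −1.17. With division by the median of all equal-size peaks the shift was −0.17, 11.1% of genes were higher and 30.6% lower, and the members split 3 higher, without Zbp1, and 5 lower, with Bst2 and Trim25 added.

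Ifit1 had the largest negative difference, −0.73, with relative levels of −1.81 and −1.25 in Smc3-het against −0.90, −0.53 and −0.98 in Smc3-wt. Ifih1 had −0.44 and 0.24 against 0.88, 0.54 and 0.38, a difference of −0.70. Without Smc3-het replicate 1 the difference was −0.46 at Ifit1 and −0.37 at Ifih1. Ifit2 had 0.06 and −0.12 against 0.13, 0.07 and 0.19, a difference of −0.16, with 0.06 in Smc3-het next to 0.07 in Smc3-wt. Leaving out replicate 1 of Smc3-het gave −0.26, and leaving out replicate 2 gave −0.06. For these 7 genes the two-sided exact permutation p was 0.2, the smallest possible, before any adjustment.

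The scale itself was narrower in Smc3-het. The SD of relative levels over shared gene ends was 0.65 and 0.72 in Smc3-het, against 0.89, 0.83 and 0.86 in Smc3-wt. With the shared gene ends put into 4 equal bins by mean level, the lowest bin had a median difference of 0.28, with 30.3% of genes higher and 4.83% lower in Smc3-het. In the highest bin it was −0.28, with 7.31% higher and 45.9% lower. Of the 19 members 6 lay in the lowest bin, 7 and 6 in the next ones and 0 in the highest. Ifit1 was in the lowest bin with a negative difference, and Zbp1 was there with a positive one. A part of the shared gene ends was also put into 4 bins by promoter CpG ratio, of 1854, 1856, 1851 and 1854 genes. These bins held 8, 4, 2 and 1 members. In each bin the median difference over its genes was between 0.00 and 0.01.

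**Figure D5:**
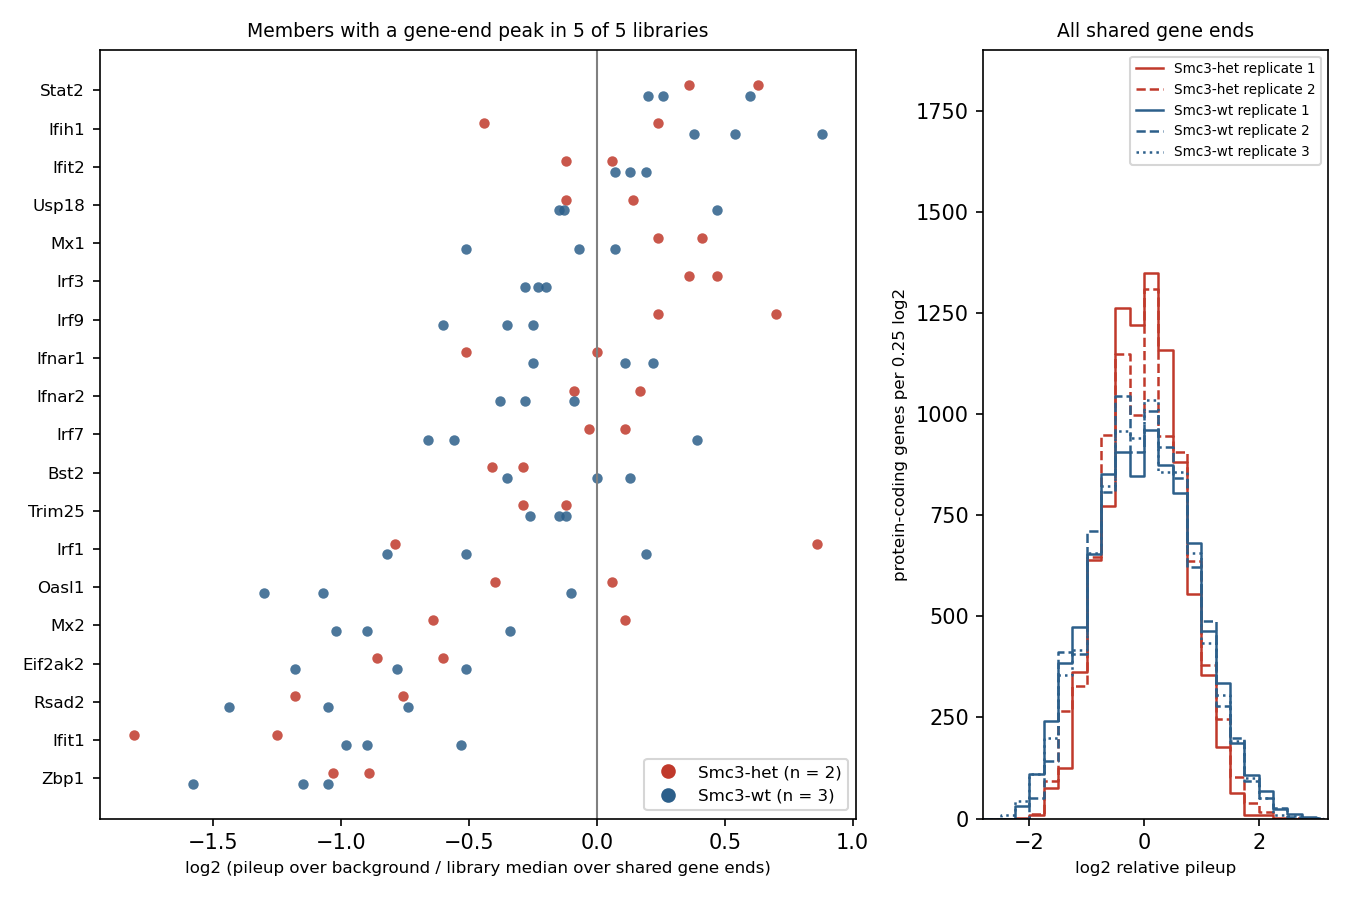
Left, relative pileup at gene ends (log2, 0 is the library median over shared gene ends) of the 19 members with a peak in 5 of 5 equal-size lists, Smc3-het points (n = 2) above Smc3-wt points (n = 3), ordered by mean. Right, the number of protein-coding genes per 0.25 log2 for all 9022 shared gene ends in each library, with Smc3-het (SD 0.65 and 0.72) narrower than Smc3-wt (SD 0.83 to 0.89).

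The rest of the pathway was read from a list of 68 further genes, of which 67 were matched to the table and Cxcl11 was not. Oas1b was matched through a synonym to Oas1g, which is also on the list, so that gene is counted more than once. A gene-end peak was present in 5 of 5 equal-size lists at 46 of the 67. Among these 46 relative levels were apart at 8 higher and 9 lower in Smc3-het, again near the 19.1% and 22.0% of all shared gene ends. By role, 5 of 12 signalling genes were higher and 0 lower (median difference 0.31), 1 of 6 sensing genes was higher and 0 lower (median −0.03), and 2 of 28 further induced genes were higher and 9 lower (median −0.12). Parp9 and Dtx3l, which had the same gene-end value in 4 of 5 libraries, count as 2 of those 9. Ifi27 and Ifi27l2a, which had the same value in 5 of 5 libraries, count as 2 of the 28. No test was made between these classes.

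Higher relative levels in Smc3-het were found at Irf4, a lymphoid and myeloid Irf factor (difference 0.78), Stat3 (0.75), the phosphatase gene Ptpn11 (0.74), the NF-κB subunit gene Rela (0.73), Socs1, an inhibitor of Jak kinases (0.72), and the receptor kinase gene Tyk2 (0.44). At Stat3 the levels were 1.42 and 1.24 in Smc3-het against 0.65, 0.47 and 0.62 in Smc3-wt. Lower ones were found at Herc6 (−0.92), a ligase gene of the Isg15 pathway in mice, the guanylate-binding protein genes Gbp2 (−0.86) and Gbp5 (−0.57), Trim34a (−0.74), Parp9 (−0.71) and Pnpt1 (−0.56). Herc6 had −0.97 and 0.00 in Smc3-het against 0.61, 0.58 and 0.10 in Smc3-wt. Each apart value had an exact permutation p of 0.2. Tlr3, the endosomal receptor for double-stranded RNA and so for PIPC, had a gene-end peak in no Smc3-het list, full lists included, and in all 3 Smc3-wt lists, at 12, 10.9 and 11.2 times background. In equal-size lists it was the 1 gene of the list with this pattern, beside 0.938% of all genes. In full lists Ifi47, an interferon-inducible GTPase gene, had it too, at 13.1, 9.87 and 5.95 in Smc3-wt, beside 3.69% of all genes.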

How the data were processed

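Per the submitters' processing notes, the authors used Bowtie2, MACS2 and the build mm10, with no version given in the sources used here. Each deposited list gives, per the file headers, a peak's interval, summit pileup (a coverage signal in whole fragments) and fold enrichment, the ratio to local background. Headers of 2 further deposited columns were lost, and from order and values they are −log10 p and −log10 q. These are the authors' values for each peak. The number of mapped fragments was not used here.

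Only chromosomes 1 to 19, X and Y were used, and overlapping peaks of a library were merged. Background coverage was solved from pileup and fold with a pseudocount of 1. Genes came from a RefSeq table of GRCm38.p6, the same build as mm10. Regions were unions of intervals overlapping by at least 1 base. Groups were called apart where their values did not overlap, and a single gene was tested with a two-sided exact permutation test over the 10 ways to divide 5 libraries. Groups and replicate numbers came from titles. The members and lists were chosen with earlier results of these data known. Named genes were those apart between genotypes, the 2 highest and 2 lowest, the most peak-rich of each family, those with no gene-end peak, and up to 6 pathway genes per direction. Functions were tested on simulated data. Alternatives covered list length, q, ranking, window, gene-end width, scaling and single libraries. Python 3.11.15, pandas 2.3.3 and NumPy 2.4.6 were used. Some list genes are not reported here.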

Additional observations from a re-analysis of the deposited data

How the results depend on the processing

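Differences below are Smc3-het minus Smc3-wt. The difference in peaks at the loci, 2.17 in equal-size lists, was −59.7 in full lists, −38.7 and −25.8 at −log10 q of at least 5 and 10, 8 with peaks ranked by fold, −3 within gene bodies alone and 4.83 with a peak counted for each member near it. Leaving out 1 library gave −0.333 to 4.67. The difference in members with a gene-end peak, 1.5, was −4.83 in full lists and −5.33 and −6.5 at the 2 q limits, with 0 to 3 without 1 library. Full lists and lists above a q limit were longer in Smc3-wt. The values without Smc3-het replicate 1 were −0.333, 0 and, for relative pileup, 0.01. The difference in median relative pileup, 0.20, was −0.97 undivided, 0.03 with division by the median of all equal-size peaks, and 0.01 to 0.38 without 1 library. The mean of the same-numbered differences over replicates 1 and 2, without Smc3-wt replicate 3, gave 2 peaks, 2 members and 0.16. Correlations of same-numbered libraries over 9022 gene ends, after centring within genotype, were −0.11 and −0.04. With 2 Smc3-het libraries the centred values mirror each other, so these correlations cannot decide whether the numbers mark pairs.

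For single genes, 14 values reversed, 38 moved and 95 did neither. Locus differences reversed in full lists at Ifit2 (−0.333), Ifit3 (−1), Ifitm3 (−0.5) and Ifitm6 (−1.33), at −log10 q of at least 5 at Ifitm3 (−0.167) and Ifitm6 (−0.667), at 10 at Ifitm3 (−0.167), Ifitm6 (−0.667) and Irf5 (−0.167), and with 20 kb at Ifitm3 (−0.167). Undivided pileup reversed Irf3 (−0.52), Irf9 (−0.30), Zbp1 (−0.87) and Mx1 (−0.67). The cause was not tested.

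With 2 and 3 libraries the exact permutation test used cannot go below 0.2, and equal-size lists reach weaker peaks in Smc3-het, so a missing peak there or in Smc3-wt is not absence of access. Depth in fragments is unknown, and background coverage stands in for it.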
